A study of Mus musculus with 24 samples.

Results

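The genes described here are the core of the major histocompatibility complex (MHC) class II presentation pathway in mouse aorta: Cd74, H2-Ab1, H2-Aa, H2-Eb1, H2-DMa, H2-DMb1 and Ciita. They were picked by gene symbol and are 7 of the 41128 genes in the deposited count table, where all 7 were found and all 7 passed the filter on low counts. The choice was made with results of these data known: Cd74 and H2-Ab1 had been called higher in KO than in WT aortas of control mice. The KO minus WT values in control mice, and the counts of calls on that contrast given below, therefore describe how the genes were chosen, and nothing is supported with them.

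The series asked how loss of Ppp3cb, the beta catalytic subunit of the calcium-activated phosphatase calcineurin, bears on the response of vessels to angiotensin II (AngII). Total RNA depleted of ribosomal RNA was sequenced from 24 aortas of mice aged 5 months. KO mice came from the Jackson strain B6,129S6-Ppp3cbtm1Jmk/J, and the labels name no Cre driver or tissue-restricted deletion; WT mice are labelled wildtype, with no statement on whether they were littermates. AngII mice had osmotic minipumps delivering 500 ng of AngII per kg body weight per min over 4 weeks; for control mice no pump, sham operation or vehicle is mentioned. There were 3 libraries in each of the 8 groups KO AngII, KO control, WT AngII and WT control, female and male, so that each genotype and treatment had 6 libraries. The labels number the replicates without saying that each is a separate mouse, so p-values measure the spread between these libraries.

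MHC class II molecules display peptides from proteins taken up by a cell to CD4+ T cells. They are made mainly by dendritic cells, macrophages and B cells, and other cells, endothelium among them, can make them after exposure to interferon gamma. In the aorta, such antigen-presenting cells lie mostly in the adventitia and the surrounding fat. The alpha and beta chains pair in the endoplasmic reticulum with the invariant chain, which fills the groove and steers the complex to endosomes. There proteases trim the invariant chain, and the DM proteins help exchange its last fragment for peptide. The transactivator CIITA binds no DNA itself and acts through factors bound to the X and Y boxes of the promoters.

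By role, Cd74 encodes the invariant chain (chromosome 18, 60803848 to 60812652, plus strand), and Ciita (chromosome 16, 10480059 to 10528418, plus strand) encodes the transactivator. Coordinates are for mm10 from GENCODE M21, and all 7 genes are annotated as protein-coding.

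H2-Aa (chromosome 17, 34282744 to 34287823, minus strand) and H2-Ab1 (34257689 to 34269419, plus strand) encode the alpha and beta chains of the I-A molecule. H2-Eb1 (chromosome 17, 34305867 to 34316674, plus strand) encodes the beta chain of I-E. H2-DMa (34119541 to 34139101, plus strand) and H2-DMb1 (34153072 to 34160230, plus strand), also on chromosome 17, encode the chains of the DM peptide exchanger. The gene models of H2-Eb1, H2-DMa and Ciita overlap genes of the opposite strand, Gm20513, Brd2 and Dexi among them, and whether the counting used strand is not given in the sources used here. H2-DMb1 has a close copy, H2-DMb2, so the split of reads between them is uncertain.

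Promoter windows reaching from 250 bases before to 50 bases after the start were matched by symbol for 4 of the 7 genes in the RefSeq table (GRCm38.p6); Cd74, H2-Ab1 and Ciita had no entry. The windows of H2-Aa (chr17:34287774-34288073, minus strand), H2-Eb1 (chr17:34305617-34305916, plus strand) and H2-DMb1 (chr17:34152941-34153240, plus strand) are shown because all 3 hold the same pair of motifs. Capitals mark the X1 motif and each Y box, CCAAT or its reverse complement ATTGG.
H2-Aa: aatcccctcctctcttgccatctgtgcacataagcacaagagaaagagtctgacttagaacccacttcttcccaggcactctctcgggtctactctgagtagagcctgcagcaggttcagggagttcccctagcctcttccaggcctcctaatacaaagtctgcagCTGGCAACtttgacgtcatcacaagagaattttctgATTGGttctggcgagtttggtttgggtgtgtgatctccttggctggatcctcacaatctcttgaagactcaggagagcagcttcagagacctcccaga
H2-Eb1: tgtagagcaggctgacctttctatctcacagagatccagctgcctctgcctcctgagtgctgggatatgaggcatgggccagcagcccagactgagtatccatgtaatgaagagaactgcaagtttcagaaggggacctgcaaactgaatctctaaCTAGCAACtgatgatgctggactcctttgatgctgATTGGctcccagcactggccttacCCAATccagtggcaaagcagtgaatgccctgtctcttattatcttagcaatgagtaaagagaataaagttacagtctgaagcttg
H2-DMb1: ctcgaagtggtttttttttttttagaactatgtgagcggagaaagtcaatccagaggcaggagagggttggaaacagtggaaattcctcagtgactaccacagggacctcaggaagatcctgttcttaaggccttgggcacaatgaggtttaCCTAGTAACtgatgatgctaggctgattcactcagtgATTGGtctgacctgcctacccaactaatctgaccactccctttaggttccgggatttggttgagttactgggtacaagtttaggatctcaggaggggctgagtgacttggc
The Y box was searched on both strands as CCAAT and the X1 box as CCTNGNNAC. A shorter X1 core, CTNGNAAC, was added after the windows had been read. Counted back from the start, the X1 core lay at -84 in H2-Aa (CTGGCAAC), at -94 in H2-Eb1 (CTAGCAAC) and at -97 in H2-DMb1 (CTAGTAAC, within the longer match CCTAGTAAC at -98). An ATTGG followed on the same strand at -48, -59 and -61 in these windows, with 28, 27 and 28 bases between the motifs. Both motifs are common one by one: among 32544 promoter windows of this length, 37.4% held a Y box, 15.9% the X1 box and 13.2% the X1 core. The X1 core with ATTGG within 60 bases after it on the same strand stood in 98 windows, 0.301%, but this core was written from the windows shown, so its rarity is no independent description of them. The longer X1 box with a Y box within 60 bases after it stood in 540 windows, 1.66%, and of the windows shown only that of H2-DMb1 held it. Both windows of H2-DMa lacked the X1 motifs, and 1 of them held an ATTGG at -198. A match describes letters in a window, not a bound site.

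Library totals were 1523328 to 6352365 counts, of which 36.3% to 74.6% lay on protein-coding genes. Myh11, the smooth muscle myosin, stood at 3636 to 9809 CPM in the 24 libraries, where CPM, the depth-scaled count, is taken over the TMM-scaled library size. Ppp3cb itself was at 11.2 to 30.3 CPM in the 12 KO libraries and 28.1 to 69.4 CPM in the 12 WT libraries. In 10 of the 12 KO libraries it was below every WT library, so the genotypes overlapped and the deleted stretch cannot be seen in gene totals. The 3 KO control female libraries stood apart, with the lowest totals (1523328 to 2401264) and 2.51% to 13.3% of counts on rRNA, snRNA and other small RNA genes, against 15.4% to 40.3% in all other libraries but KO AngII female 3 (9.31%). Females 1 and 3 also had 1992 and 1893 CPM of protein-coding counts on olfactory and vomeronasal receptor genes, against 111 to 1073 in the others, female 2 among them at 1002. For the class II genes, the 2 highest libraries by summed level were KO control male 2 (1252 CPM) and KO AngII male 2 (676 CPM). The next was KO control female 3, at 543 CPM. Values without these 2 males are given beside the differences they move most. Both are KO and were picked as the highest, so leaving them out lowers the summed level of their groups. A fall of KO minus WT or male minus female values without them follows from that choice, and nothing is read from its direction. Not analysed here are the genes of chromosomes 9, MT, X and Y, and those at the end of chromosome 8.

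Per kilobase of exon, Cd74 was the most abundant of the 7 at a mean level of 83.4 CPM per kb over the 24 libraries. H2-Ab1 stood at 17.8, H2-Eb1 at 5.73, H2-Aa at 4.07, H2-DMb1 at 3.36, H2-DMa at 1.33 and Ciita at 0.737 CPM per kb. Cd74 was above H2-Ab1 in all 24 libraries, and H2-Ab1 above H2-Eb1 in 23 of 24. Below these, the order was not fixed: H2-Eb1 was above H2-Aa in 14 of 24 libraries, H2-Aa above H2-DMb1 in 14, H2-DMb1 above H2-DMa in 18 and H2-DMa above Ciita in 13. The counts behind them were 12350 for Cd74 over all libraries, 3982 for H2-Ab1, 1467 for H2-Aa and 1023 for H2-Eb1. They were 616 for Ciita, 541 for H2-DMb1 and 411 for H2-DMa, and 4 libraries had no H2-DMa count and 2 no H2-DMb1 count. A single library can therefore move the values of the DM genes a long way.

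Summed over the 7 genes, the level in KO AngII libraries was 69.2 CPM at the lowest, 140 at the median and 676 at the highest. It was 51.3, 361 and 1252 CPM in KO control libraries. In WT AngII libraries the lowest, median and highest were 89.7, 135 and 164 CPM, and in WT control libraries 27.8, 78.5 and 135 CPM. The highest library held 9.76 times the lowest among KO AngII libraries and 24.4 times among KO control libraries, against 1.83 times among WT AngII and 4.87 times among WT control libraries. The 8 highest libraries of the 24 by this sum were all KO, 5 of them control and 3 AngII. KO mice were also at the low end, with KO control male 3 at 51.3 CPM ranking 22 of 24 and KO AngII male 3 at 69.2 CPM ranking 21. In bulk RNA, fewer cells of a type and less RNA per cell cannot be told apart.

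**Figure D1:**
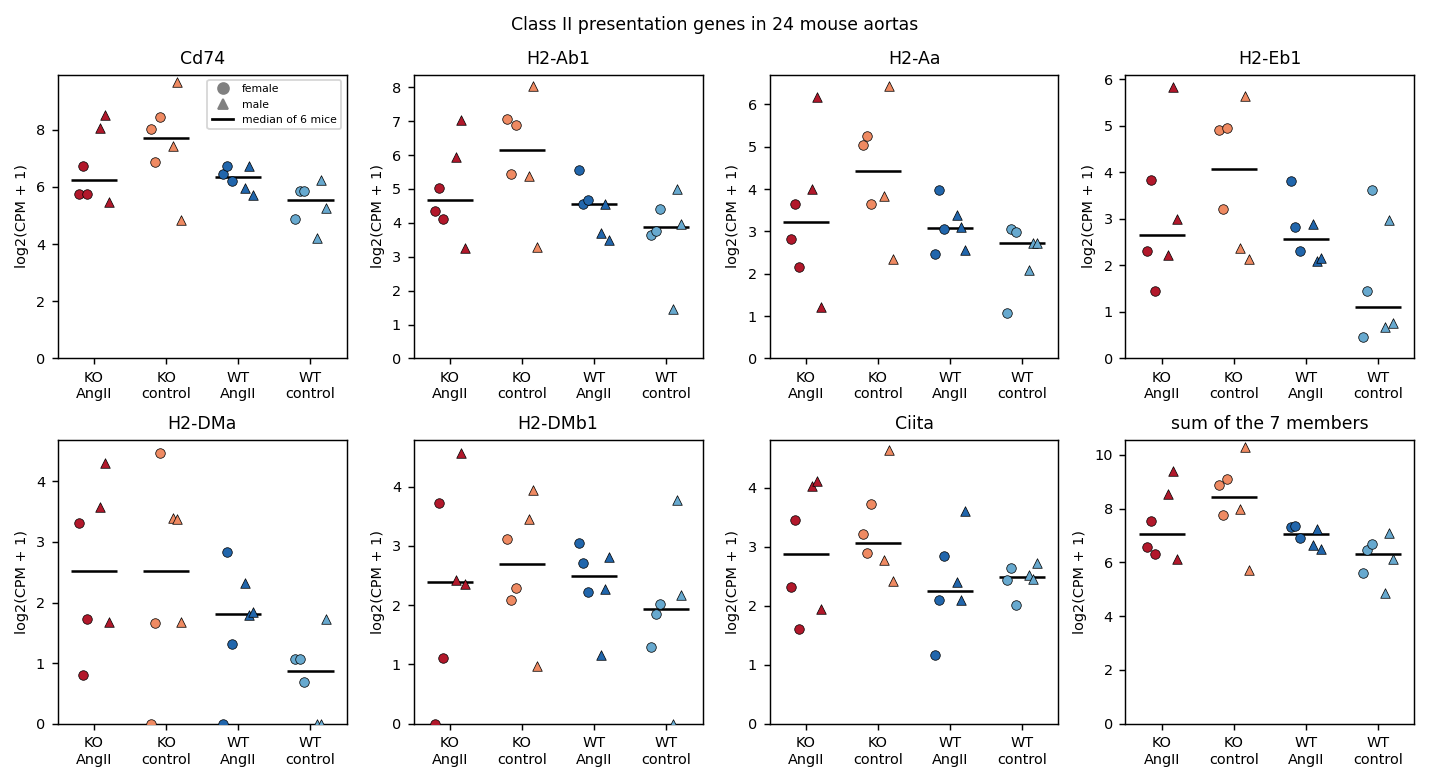
Level of each of the 7 genes and of their sum in 24 aortas as log2(CPM + 1), by genotype and treatment; circles are female libraries, triangles male libraries, and bars the median of 6. The Cd74 panel shows KO control libraries between 27.5 and 806 CPM and WT control libraries between 17.4 and 74.5 CPM, with 1 KO control library inside the WT range.

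The invariant chain Cd74 was at 27.5 CPM at the lowest, 214 at the median and 806 at the highest in KO control libraries, against 17.4, 47.0 and 74.5 CPM in WT control libraries. The 3 KO control females had 257, 115 and 348 CPM, and the 3 KO control males 171, 806 and 27.5 CPM. WT control females had 28.2, 56.5 and 57.1 CPM, and WT control males 17.4, 74.5 and 37.5 CPM. Thus 5 of 6 KO control libraries were above every WT control library and the sixth, male 3, was within their range. The log2 difference, KO minus WT, was 2.64 ± 0.50 (SE), a 6.25-fold higher level in KO control mice.

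The chains of I-A showed the same split between libraries. H2-Ab1 was at 8.75, 79.2 and 264 CPM (lowest, median, highest) in KO control libraries and at 1.77, 13.6 and 31.1 CPM in WT control libraries, a log2 difference of 2.70 ± 0.58. H2-Aa was at 4.13, 22.5 and 85.8 CPM in KO control libraries and 1.10, 5.62 and 7.39 CPM in WT control libraries, a log2 difference of 2.58 ± 0.63. For both genes, again, all KO control libraries but male 3 were above every WT control library. The 2 chains did not keep one proportion: KO control female 3 had 210 counts of H2-Ab1 and 21 of H2-Aa, whereas KO control female 2 had 117 and 103.

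The I-E beta chain H2-Eb1 was at 3.40, 18.8 and 48.8 CPM (lowest, median, highest) in KO control libraries and 0.366, 1.22 and 11.2 CPM in WT control libraries, a log2 difference of 2.54 ± 0.75. Here 3 of 6 KO control libraries were above every WT control library, since WT control female 3 reached 11.2 CPM. The DM alpha chain H2-DMa was at 0, 5.77 and 21.1 CPM in KO control libraries and 0, 0.847 and 2.33 CPM in WT control libraries. Its log2 difference, 3.04 ± 0.94, was the largest of the 7 and had the widest SE, with 1 KO control and 2 WT control libraries at 0 counts. The DM beta chain H2-DMb1 was at 0.972, 5.76 and 14.4 CPM in KO control libraries and 0, 2.82 and 12.7 CPM in WT control libraries, with a log2 difference of 0.82 ± 0.79. H2-DMb1 thus had the smallest difference of the 7, and 1 KO control library was above every WT control library.

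The transactivator Ciita was at 4.37, 7.38 and 23.96 CPM (lowest, median, highest) in KO control libraries and 3.04, 4.61 and 5.59 CPM in WT control libraries. Its log2 difference was 1.14 ± 0.53, smaller than that of Cd74 and of the classical chains. Again 5 of 6 KO control libraries were above every WT control library, male 3 excepted. In both sexes all 7 genes were higher in KO than WT control libraries, with a median log2 difference of 2.34 in females and 2.76 in males. The difference between these 2 contrasts was not called for any of the 7 genes by edgeR, DESeq2 or limma-voom, with none at an unadjusted p under 0.05 in edgeR. Of all genes, edgeR called 0.0552%, DESeq2 0.674% and limma-voom 0.0306%.

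In edgeR's quasi-likelihood fit, 2 of the 7 genes, Cd74 and H2-Ab1, were called in this comparison at an adjusted p under 0.05, and 0.221% of all 16316 genes tested were. DESeq2 called 4 of the 7 (1.19% of all genes) and limma-voom 0 (0.264%). For none of the 7 did the 6 KO control and 6 WT control libraries fail to overlap, and 0.337% of all genes did not overlap. Because the genes were chosen on this contrast, nothing is read from these counts. By adjusted p in edgeR, H2-Ab1 stood just inside the threshold at 0.0319 (log2 difference 2.70). H2-Aa stood just outside it at 0.0747 (log2 difference 2.58). The call on Cd74 rested on KO control male 2: without this library the log2 difference was 1.71 and the call was lost, while it was kept without any other single library. The call on H2-Ab1 was lost without any 1 of 7 libraries, namely KO control females 1 and 3, KO control male 2, WT control females 1 and 2, and WT control males 1 and 3. Without KO control females 1 and 3, the libraries rich in receptor genes, the difference was 2.08 for both genes and neither was called.

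Under AngII the KO minus WT difference was tested, since it does not enter the choice. None of the 7 genes was called, although all 7 had a higher fitted level in KO AngII libraries. The log2 differences were 0.64 ± 0.47 for Cd74, 0.83 ± 0.56 for H2-Ab1, 0.82 ± 0.61 for H2-Aa and 1.02 ± 0.72 for H2-Eb1. They were 1.25 ± 0.86 for H2-DMa, 0.57 ± 0.77 for H2-DMb1 and 0.71 ± 0.53 for Ciita. The adjusted p by edgeR's quasi-likelihood test was 0.872 to 0.985, none had an unadjusted p under 0.05, and DESeq2 and limma-voom also called 0 of 7. Among all genes edgeR called 0.355%, DESeq2 0.99% and limma-voom 1.23%, and the median log2 difference of all genes was 0.01.

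Library by library, the AngII groups overlapped for all 7 genes; 0.815% of all genes did not overlap. Cd74 was at 43.2, 78.9 and 361 CPM (lowest, median, highest) in KO AngII libraries, against 51.2, 79.8 and 106 CPM in WT AngII libraries. The medians were within 1 CPM of each other, 1 KO AngII library was below every WT AngII library, and 2 KO AngII libraries, males 1 and 2 at 265 and 361 CPM, were above every WT AngII library. H2-Ab1 was at 8.52, 25.3 and 129 CPM in KO AngII libraries and 10.3, 22.7 and 46.0 CPM in WT AngII libraries. H2-Aa was at 1.31, 8.76 and 71.4 CPM in KO AngII libraries and 4.50, 7.53 and 14.7 CPM in WT AngII libraries. For both I-A chains the same 2 KO AngII males, 1 and 2, were the libraries above every WT AngII library.

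H2-Eb1 was at 1.75, 5.47 and 56.1 CPM (lowest, median, highest) in KO AngII libraries and 3.29, 5.02 and 13.0 CPM in WT AngII libraries. H2-DMa was at 0.738, 5.65 and 18.7 CPM in KO AngII libraries and 0, 2.53 and 6.10 CPM in WT AngII libraries. H2-DMb1 was at 0, 4.28 and 22.7 CPM in KO AngII libraries and 1.23, 4.71 and 7.25 CPM in WT AngII libraries. KO AngII male 2 held the highest value of each of these 3 genes among the 12 AngII libraries. Ciita was at 2.04, 6.96 and 16.4 CPM in KO AngII libraries and 1.25, 3.801 and 11.2 CPM in WT AngII libraries. Males 1 and 2, at 15.4 and 16.4 CPM, were again the KO AngII libraries above every WT one.

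The sexes were also compared one by one under AngII. In males all 7 genes were higher in KO AngII than in WT AngII libraries, with a median log2 difference of 1.81. Of the 7, edgeR called 0 and 4 had an unadjusted p under 0.05, while 0.0245% of all genes were called. Such a p was held by 759 of all 16316 genes. In females 5 of 7 were lower, with a median of -0.34, 0 genes called and none at an unadjusted p under 0.05 (0% of all genes were called). For Cd74 the differences were 1.61 ± 0.68 in males and -0.34 ± 0.67 in females. The difference between the sexes itself, a contrast chosen after seeing the data, was 1.95 ± 0.95 for Cd74 and 2.62 ± 1.12 for H2-Ab1, with an adjusted p of 1 in edgeR for all 7 genes. It was positive for all 7, 2 had an unadjusted p under 0.05, as did 386 of all genes, and edgeR called 0% of all genes. A fall without KO control male 2 and KO AngII male 2 follows from their choice as the highest libraries. Without them the median KO minus WT difference in males was 0.52. The difference was still positive for all 7, with 0 at an unadjusted p under 0.05. Cd74 then stood at 1.06 ± 0.58 and H2-Aa at 0.10 ± 0.80. The sex difference without these 2 libraries was 1.42 ± 0.79 for Cd74 and 1.65 ± 0.92 for H2-Ab1, with a median of 0.56 and none of the 7 at an unadjusted p under 0.05.

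Without KO control male 2 and KO AngII male 2, the KO minus WT differences under AngII were 0.35 for Cd74 and 0.33 for H2-Ab1. H2-Aa stood at -0.14, H2-Eb1 at -0.01 and H2-DMb1 at -0.08, so for these 3 the sign turned. The sign of H2-DMb1 also turned without KO AngII female 2, to -0.87.

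**Figure D2:**
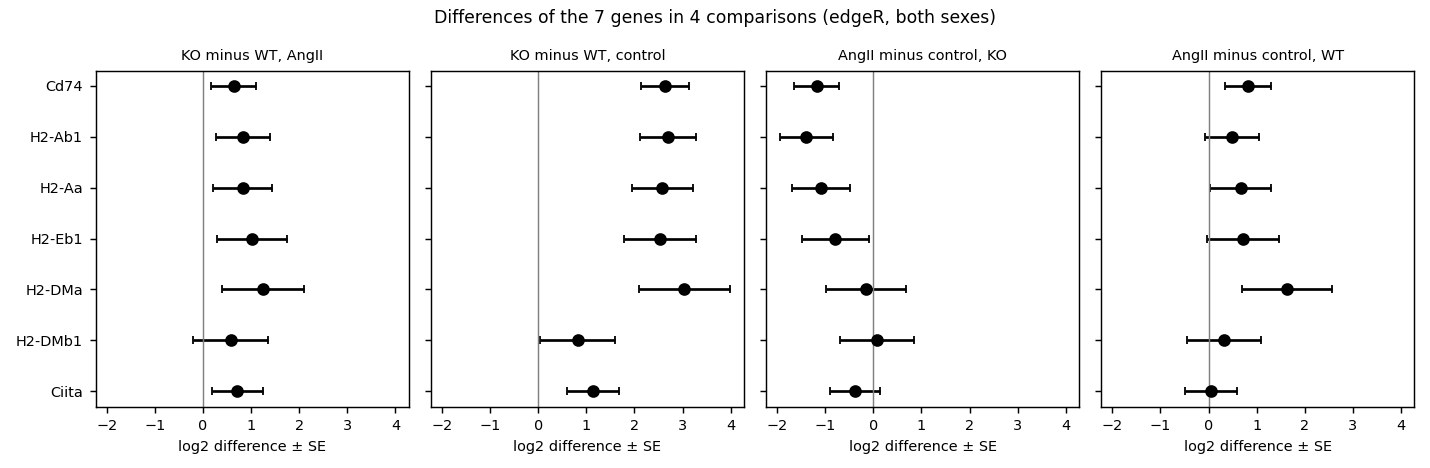
Log2 differences with their SE for the 7 genes in 4 comparisons, from 1 edgeR model of 24 libraries; the KO minus WT panel for control mice shows the contrast the genes were chosen on. In AngII mice the KO minus WT differences lie between 0.57 and 1.25, and in KO mice 6 of 7 AngII minus control differences are below 0.

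In WT mice, AngII minus control differences were positive for all 7 genes, and none was called. The WT control libraries in it are among those on which the genes were chosen. These differences and their signs are therefore not independent of that choice. They were 0.82 ± 0.48 for Cd74, 0.49 ± 0.57 for H2-Ab1, 0.67 ± 0.63 for H2-Aa and 0.72 ± 0.75 for H2-Eb1. They were 1.63 ± 0.93 for H2-DMa, 0.32 ± 0.78 for H2-DMb1 and 0.05 ± 0.54 for Ciita. The adjusted p in edgeR was 0.832 to 1, none of the 7 had an unadjusted p under 0.05, and DESeq2 and limma-voom called 0 of 7. Among all genes edgeR called 0.208%, DESeq2 0.49% and limma-voom 2.02%. All 6 WT AngII libraries were above the WT control median of Cd74, and 3 of 6 were above every WT control library. The groups overlapped for all 7 genes, and 0.65% of all genes did not overlap. With no filter on low counts Cd74 was called, at a log2 difference of 0.84 and an adjusted p of 0.0296 in edgeR. That fit took in every gene with any count and called 134 of all genes. No other alternative run called any of the 7 in this comparison.

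In KO mice the AngII minus control differences were negative for 6 of the 7 genes, and none was called. They were -1.18 ± 0.48 for Cd74, -1.39 ± 0.55 for H2-Ab1, -1.09 ± 0.60 for H2-Aa and -0.79 ± 0.69 for H2-Eb1. The DM genes and the transactivator stood at -0.16 ± 0.83 for H2-DMa, 0.08 ± 0.78 for H2-DMb1 and -0.38 ± 0.52 for Ciita. The adjusted p in edgeR was 0.538 to 1, with 2 of 7 at an unadjusted p under 0.05, and DESeq2 and limma-voom called 0 of 7. In this comparison edgeR called 0% of all genes, with 1258 genes at an unadjusted p under 0.05, while DESeq2 called 17 genes, 0.106%, and limma-voom 0%. The KO control libraries in it are those on which the genes were chosen, so these differences are not independent of that choice.

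For all 7 genes the KO AngII and KO control libraries overlapped; 0.227% of all genes did not overlap. For Cd74, 2 of 6 KO AngII libraries were above the KO control median. In females the difference was -1.78 ± 0.69 and in males -0.59 ± 0.66 for Cd74, with 0 of 7 genes called by edgeR in either sex, 3 of 7 at an unadjusted p under 0.05 in females and none in males, and 0% of all genes called in each. Among all 16316 genes, 1977 in females and 498 in males had such a p. Without KO control male 2 and KO AngII male 2 the value for both sexes was -0.54 for Cd74 and -0.80 for H2-Ab1. Without KO control females 1 and 3 it was -0.65 for Cd74 and -0.79 for H2-Ab1. The sign turned for H2-DMa without KO control female 3 (1.17) and for H2-DMb1 without KO AngII female 2 (-1.33). With no filter on low counts Cd74 and H2-Ab1 were called, at -1.16 and -1.37 and adjusted p-values of 0.000112 and 6.61e-05 in edgeR. That fit took in every gene with any count and called 85 of all genes. No other alternative run called any of the 7 in this comparison.

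The difference between the 2 responses, KO minus WT, was negative for all 7 genes: -2.01 ± 0.67 for Cd74, -1.88 ± 0.79 for H2-Ab1, -1.75 ± 0.87 for H2-Aa and -1.51 ± 1.02 for H2-Eb1. It was -1.79 ± 1.24 for H2-DMa, -0.24 ± 1.09 for H2-DMb1 and -0.42 ± 0.75 for Ciita. This contrast contains all 4 groups, so it too shares the KO control and WT control libraries. In edgeR no gene was called, neither among the 7 nor among all genes (0%), and the adjusted p of all 7 was 1. Cd74 and H2-Ab1 had an unadjusted p under 0.05, as did 657 of all genes, and DESeq2 and limma-voom called none of the 7 and 0% of all genes. With no filter on low counts both were called, with adjusted p-values of 1.56e-06 and 0.000694 in edgeR. That fit took in every gene with any count and called 12 of all genes. The cause of this change from the filtered fit was not tested. No other alternative run called any of the 7 in this comparison. Without KO control male 2 and KO AngII male 2 the value for Cd74 was -1.36.

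**Figure D3:**
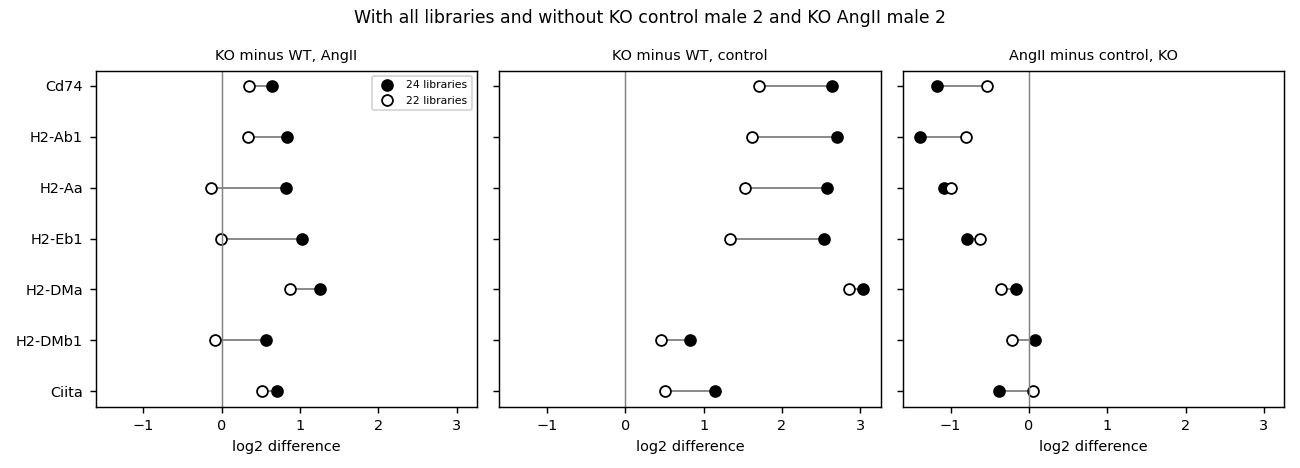
Log2 differences of the 7 genes with all 24 libraries (filled) and with 22 libraries, without KO control male 2 and KO AngII male 2 (open), in 3 comparisons. The Cd74 difference in control mice, the contrast the genes were chosen on, goes to 1.71 with 22 libraries and 2.64 with 24, and under AngII H2-Aa, H2-Eb1 and H2-DMb1 lie just below 0 with 22 libraries.

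Over all mice, the 7 genes had higher fitted levels in males than in females, by 0.03 to 0.67 on the log2 scale, with a median of 0.44 against -0.05 for all genes. None was called by edgeR (adjusted p 0.363 to 0.999, none at an unadjusted p under 0.05), and neither DESeq2 nor limma-voom called one, whereas of all genes edgeR called 5.27%, DESeq2 9.12% and limma-voom 7.61%. Without KO control male 2 and KO AngII male 2 the sign turned for Cd74 (-0.11), H2-Ab1 (-0.54), H2-Aa (-0.43) and H2-Eb1 (-1.03).

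The share of Cd74 in the sum of the 7 genes and the ratio of H2-Ab1 to Cd74 varied less than the sum itself. Cd74 made up 53.5% to 71.0% of the summed CPM, with a median of 59.9%, and stood at 64.4% in KO control male 2 and 53.5% in KO AngII male 2. H2-Ab1 counts per Cd74 count were 0.102 to 0.533, with a median of 0.323, and were 0.328 in KO control male 2 and 0.358 in KO AngII male 2. Both libraries were thus inside the range of the others in H2-Ab1 per Cd74, although their sums ranked first and second. The lowest ratio, 0.102, was that of WT control male 1, which had 6 counts of H2-Ab1.

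After each group's mean was subtracted, the log2 levels of the 7 genes correlated across the 24 libraries with a Pearson r of -0.07 to 0.94, and the median of the 21 pairs was 0.61. The pair of Cd74 and H2-Ab1 had the highest r, 0.94, and the pair of H2-DMa and H2-DMb1 the lowest. H2-DMa had an r of at most 0.38 with any of the others. Without KO control male 2 and KO AngII male 2 the median was 0.34, and Cd74 and H2-Ab1 kept an r of 0.90. These values are a description of libraries that also share depth and make-up of tissue.

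**Figure D4:**
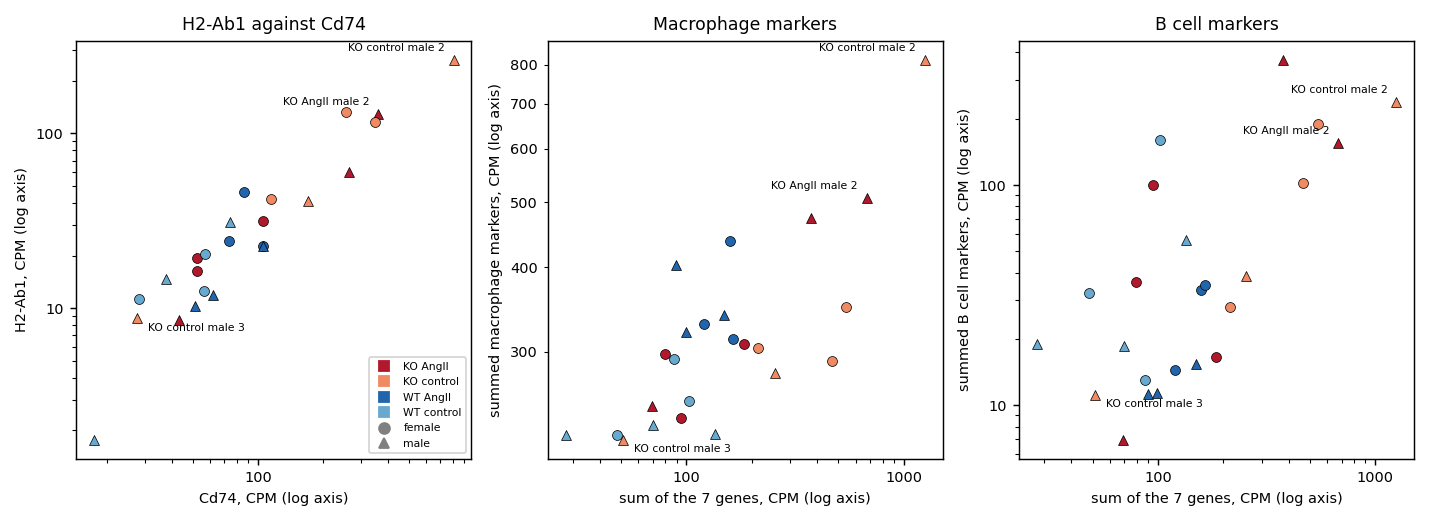
H2-Ab1 against Cd74, and the summed level of macrophage and of B cell markers against the sum of the 7 genes, in CPM on log axes, 1 point per library; colours are genotype and treatment, circles female and triangles male libraries. KO control male 2 is at the top right of the first 2 panels, with 806 CPM of Cd74, 264 CPM of H2-Ab1 and 813 CPM of macrophage markers.

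Markers of antigen-presenting cells moved with these levels in some libraries. The macrophage list, which includes C1qa, C1qb, Csf1r, Lyz2 and Cd68, had 18 of 18 genes measured, all past the filter. Its sum was 239 to 507 CPM in KO AngII libraries and 222 to 813 CPM in KO control libraries, against 313 to 437 CPM in WT AngII and 226 to 292 CPM in WT control libraries. KO control male 2 had the highest sum, and 13 of the 18 genes were highest there, C1qa at 60.9 CPM against a median of 6.97 and Lyz2 at 147 against 27.1. KO AngII males 2 and 1 came next with 507 and 473 CPM. KO control male 3, the KO control library lowest in the 7 genes, was the lowest of all in this sum, at 222 CPM. Of the 3 KO control females, with macrophage sums of 290 to 350 CPM, 2 were above every WT control library, while their summed class II level, 214 to 543 CPM, was above every WT library in all 3. Gene by gene, KO minus WT in control mice was positive for 17 of the 18 macrophage genes, with a median log2 difference of 1.38 against -0.01 for all genes. Of the 18, edgeR called 0 and 12 had an unadjusted p under 0.05, against 1587 of all 16316 genes. In females alone 17 of 18 were positive with a median of 0.80, and in males 17 of 18 with a median of 1.796. Under AngII, KO minus WT was positive for 11 of the 18 macrophage genes, with a median of 0.11. There edgeR called 0 of the 18, and 1 had an unadjusted p under 0.05, against 1264 of all genes. WT AngII libraries were all above WT control libraries in macrophage markers, but overlapped them in the summed class II level.

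The B cell list had 13 genes in measured regions, of which 7 passed the filter. Its sum was 6.99 to 371 CPM in KO AngII and 11.2 to 237 CPM in KO control libraries, against 11.2 to 35.3 CPM in WT AngII and 13.0 to 160 CPM in WT control libraries. Most of it came from the immunoglobulin genes Ighm and Igkc, highest in KO AngII male 1 at 222 and 128 CPM. Ms4a1 (CD20) and Cd79a each had 0 counts in 9 libraries, and neither was above 8.92 CPM in any library. KO minus WT was positive for all 7 B cell genes past the filter under AngII (median 2.08) and for 6 in control mice (median 0.81). In each, edgeR called 0 and 2 had an unadjusted p under 0.05, against 1264 and 1587 of all genes. The libraries ranked 1 and 2 by the 7 genes, KO control male 2 and KO AngII male 2, ranked 2 and 5 in B cell markers, at 237 and 155 CPM. KO control female 3 had 189.5 CPM of B cell markers and 543 CPM of the 7 genes. In other libraries the levels differed. WT control female 3 had 160 CPM of B cell markers and 102 CPM of the 7 genes. KO control male 1 had 255 CPM of the 7 genes with a B cell sum of 38.8 CPM. The dendritic cell list, with Itgax, Flt3, Clec9a and Zbtb46 at its head, had 10 genes in measured regions and 6 past the filter. Its sum was 27.5 to 58.3 CPM in KO AngII, 31.6 to 85.3 in KO control, 25.5 to 46.3 in WT AngII and 28.1 to 47.7 CPM in WT control libraries, and Batf3, Ccr7 and Cd207 had 0 counts in at least 12 libraries each. T and NK cell markers summed to 2.18 to 34.6 CPM in KO AngII, 5.37 to 56.0 in KO control, 3.84 to 24.2 in WT AngII and 5.66 to 13.98 CPM in WT control libraries. All 3 KO control females, at 56.0, 24.1 and 33.8 CPM, were above every WT control library. Smooth muscle markers summed to 10540 to 15270 CPM in these 3 females, against 18050 to 27570 CPM in WT control libraries. In females, KO minus WT in control mice was negative for all 10 smooth muscle genes past the filter, with a median of -0.56, 0 called and 4 at an unadjusted p under 0.05. Among all 16316 genes, edgeR called 133 in this female contrast and 2565 had such a p. In males 7 of the 10 were positive, with a median of 0.11, 0 called and 0 at an unadjusted p under 0.05. Of these immune lists, edgeR called 1 gene in the comparisons above, the complement gene C1qb between the sexes (adjusted p 0.036). The part of these cells in the class II differences was not tested. Among markers of other cells of the vessel wall, edgeR called the collagen genes Col1a2 and Col3a1, higher under AngII in WT mice (log2 difference 1.16 and 1.22, adjusted p 0.00957 and 0.0112). Between males and females it called the fibroblast gene Pi16 and the smooth muscle genes Acta2, Smtn and Des, all higher in males (adjusted p 0.00158 to 0.0419).

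The rest of the pathway was taken as lists. Of 9 genes of antigen processing, Ctss, Ctsl, Ctsb, Ctsd, Ctsz, Lgmn, Ifi30, March1 and March8, all passed the filter and edgeR called none in either KO minus WT comparison, either AngII comparison, the interaction or between the sexes. Cathepsin S (Ctss), the protease that trims the invariant chain in dendritic cells and B cells, was highest in KO control male 2 at 69.8 CPM, against a median of 6.61 over the 24 libraries. Cathepsins L, B and D, which are expressed far more widely, had medians of 129, 353 and 259 CPM. Ctsb was also highest in KO control male 2, at 599.6 CPM, whereas Ctsl and Ctsd were highest in WT AngII libraries. In WT mice, AngII minus control differences were positive for 8 of the 9 with a median of 0.45, and 5 had an unadjusted p under 0.05. Among all genes 1095 of 16316 had such a p. In KO mice the median was 0.26, with 7 of 9 positive and 0 at an unadjusted p under 0.05, against 1258 of all genes.

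Of the 7 factors that bind class II promoters, Rfx5, Rfxap, Rfxank, Nfya, Nfyb, Nfyc and Creb1, all passed the filter and edgeR called none in these comparisons. Their sum varied little, from 147 to 226 CPM over the 24 libraries. Rfx5, a DNA-binding subunit of the RFX complex, averaged 15.8 ± 1.70 CPM in KO AngII, 16.6 ± 7.53 in KO control, 13.8 ± 4.82 in WT AngII and 14.99 ± 5.88 CPM in WT control libraries (SD, n = 6 each). Nfya, a subunit of the Y-box factor NF-Y, was at 17.2 to 54.4 CPM over the 24 libraries.

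On the route from interferon gamma to Ciita, 7 of 9 genes passed the filter and none was called by edgeR. KO minus WT was positive for 3 of the 7 in control mice (median -0.05) and for 5 under AngII (median 0.11). In edgeR, 2 and 1 of them had an unadjusted p under 0.05, against 1587 and 1264 of all genes. Ifng itself, the cytokine, had 0 counts in 19 of 24 libraries and at most 3.82 CPM. Its receptor chains Ifngr1 and Ifngr2 had medians of 43.5 and 36.5 CPM, and the kinase Jak1 110 CPM. Irf1, an interferon-induced factor that activates a Ciita promoter, averaged 27.6 ± 6.12 CPM in KO AngII and 29.5 ± 11.11 in KO control libraries, against 15.8 ± 5.11 in WT AngII and 16.3 ± 4.70 CPM in WT control libraries (SD, n = 6 each). Its KO minus WT differences were 0.84 ± 0.27 under AngII and 0.85 ± 0.27 in control mice, and neither was called (adjusted p in edgeR 0.28 and 0.225). Socs1, an inhibitor of this route, did not pass the filter.

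Costimulatory and inhibitory surface molecules had few counts. Of Cd80, Cd86, Cd40, Cd274, Pdcd1lg2 and Icosl, all 6 passed the filter and edgeR called none. KO minus WT was positive for 4 of the 6 both in control mice (median 1.355) and under AngII (median 0.35). In edgeR, 3 and 1 of them had an unadjusted p under 0.05, against 1587 and 1264 of all genes. Cd80 had 0 counts in 11 libraries, Cd86 in 6, Cd40 in 4 and Pdcd1lg2 in 18. Cd274 (PD-L1) was measured in all 24, at 2.88 to 45.9 CPM, highest in KO control female 1.

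Of the other class II genes, H2-DMb2, H2-Ob and the pseudogene H2-Ea-ps passed the filter, H2-Oa and H2-Eb2 did not, and edgeR called none. H2-DMb2 reached 9.17 CPM in KO AngII male 1 and had 0 counts in 4 libraries. H2-Oa, the alpha chain of the DM inhibitor DO, had 0 counts in 21 libraries, and H2-Ob, its beta chain, in 8.

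The genes most like the members were sought among 11302 protein-coding genes, by Pearson r with the mean log2 CPM of the 7 genes over 24 libraries after each group's mean was subtracted. The 10 highest had an r of 0.77 to 0.84, against a median of -0.01 over all candidates. They were Cd38, an ectoenzyme that consumes NAD (0.84), Gda, guanine deaminase (0.84), the interferon-inducible GTPases Irgm2 (0.84) and Gvin1 (0.82), and Pltp, the phospholipid transfer protein (0.81). The others were Plcb2, a phospholipase C (0.81), Gm4070 (0.81), Apobr, a receptor for apolipoprotein B (0.81), 9930111J21Rik2 (0.78) and Gm4951 (0.77). Cd38 stayed first without KO control male 2 and KO AngII male 2, at an r of 0.85 over 22 libraries, whereas Apobr dropped to 0.56 and rank 224. Cd38 was at 6.62 CPM in KO control male 2 and 10.9 CPM in KO AngII male 2, with a mean of 4.54 CPM. These libraries share depth and tissue make-up, and the r values are a description.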

How the data were processed

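Reads were processed by the authors, whose deposited table holds raw counts per gene, not normalized. The submitters' processing notes list featureCounts 1.4.6, Bowtie2 2.2.5, cutadapt 1.8.1, TopHat2 2.0.14 and mm10, with no roles or order; settings, strand and annotation version are not given in the sources used here. Columns were matched to samples by the labels. Of 41128 gene IDs, 40254 matched GENCODE M21. The 7 members, all gene lists and the tests were chosen with earlier results of these data known.

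Genes were kept by filterByExpr (minimum count 10, total 15), which left 16316. One edgeR 4.0.16 quasi-likelihood model (R 4.3.3, limma 3.58.1) with a coefficient per group was fitted to all 24 libraries after TMM scaling. Contrasts over both sexes average the female and male contrasts. Tests are two-sided, and adjusted p-values are Benjamini-Hochberg values over every gene tested, with calls at 0.05. Errors are SE for differences. Levels per kb use the union of exons. DESeq2 1.42.0, limma-voom with quality weights, other filters and scalings, a replicate block, each sex alone and leaving out libraries were tried. The scripts were tested on simulated data. Named genes were the 7 members, called genes of the fixed lists, the first 4 of each list, and the 10 most like the members; further listed genes and the high libraries were named after their values were seen. A listed marker gene is not reported here by name. Counting error in PCR copies was not assessed.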

Additional observations from a re-analysis of the deposited data

Results flagged for a closer look

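In groups of 6 libraries (28 combinations of a gene and a genotype and treatment were examined), 4 had a highest library set apart from the rest by Dixon's test. Chance sets apart about 1 in 20 where values are normally spread, and the test was run here on untransformed CPM. The number set apart is therefore not compared with that rate. H2-Aa stood at 71.43 CPM in KO AngII male 2, with the nearest KO AngII library at 15.04 CPM. H2-Eb1 stood at 56.06 CPM in the same library, with the nearest at 13.29 CPM. H2-Eb1 was 13.01 CPM in WT AngII female 1, with the nearest WT AngII library at 6.447 CPM. H2-DMb1 was 12.73 CPM in WT control male 2, with the nearest WT control library at 3.492 CPM. KO AngII male 2 ranked second of 24 in summed macrophage markers, at 507 CPM, and their part in its class II levels was not tested.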

How the results depend on the processing

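The class II values rest on few counts outside Cd74 and H2-Ab1 (411 for H2-DMa and 541 for H2-DMb1 over 24 libraries), on 2 KO males that stand high and on 3 shallow KO control female libraries, 2 of them rich in receptor genes. All alternatives run kept the KO minus WT difference in control mice above 0 for all 7 genes. The genes were chosen on this contrast and the alternatives refit the same libraries, so nothing is read from the kept sign. The replicate numbers did not pair the libraries: same-numbered libraries of different groups correlated at a mean r of 0.00413 after group means were removed, over 84 pairs from -0.102 to 0.132, against -0.00179 for 168 pairs of other numbers. With the replicate number as a block, 2 of the 7 were still called in control mice, Cd74 at 2.60, and 0 in the other comparisons. No value whose sign turned was called, before or after. Calls gained with no count filter, outside KO minus WT in control mice, are given by gene with each comparison above. The cause of each change was not tested. Both high males below are KO control male 2 and KO AngII male 2, left out after seeing the data. They were picked as the highest in the sum of the 7 genes. KO minus WT and male minus female values therefore tend to fall without them, and nothing is read from that direction. For KO minus WT in control mice, 2 of the 7 called became 4 with DESeq2, 0 with limma-voom, 5 with no count filter, 1 with a filter of 50 counts in 3 libraries, 0 with only the groups compared, 0 with males only, 0 with KO control females 1 and 3 left out, 0 with both high males left out and 0 to 4 with 1 library left out, and 36 of all genes called became 183 with DESeq2, 260 with no count filter, 22 with a filter of 50 counts in 3 libraries, 21 with only the groups compared, 94 with females only, 0 with males only, 3 with KO control females 1 and 3 left out, 23 with both high males left out and 13 to 399 with 1 library left out. For KO minus WT under AngII, 58 of all genes called became 152 with DESeq2, 200 with limma-voom, 182 with no count filter, 0 with females only, 0 with males only and 35 to 72 with 1 library left out. The sign turned for H2-DMb1 at -0.04 (a replicate block), -0.31 (females only) and -0.08 (both high males left out), Cd74 at -0.31 (females only), H2-Ab1 at -0.46 (females only), H2-Aa at -0.32 (females only) and -0.14 (both high males left out) and H2-Eb1 at -0.28 (females only) and -0.01 (both high males left out). With 1 library left out in turn, values that crossed 0 ran as H2-Aa -0.13 to 1.08, H2-Eb1 -0.0045 to 1.30 and H2-DMb1 -0.87 to 0.88. For AngII minus control in WT mice, 0 of the 7 called became 1 with no count filter, and 34 of all genes called became 80 with DESeq2, 329 with limma-voom, 134 with no count filter, 0 with females only, 5 with males only, 68 with KO control females 1 and 3 left out and 5 to 86 with 1 library left out. The sign turned for Ciita at -0.00085 (DESeq2 size factors in edgeR), -0.0011 (DESeq2), -0.07 (limma-voom) and -0.28 (females only), H2-Ab1 at -0.11 (males only) and H2-DMb1 at -0.58 (males only). With 1 library left out in turn, values that crossed 0 ran as Ciita -0.30 to 0.24. For AngII minus control in KO mice, 0 of the 7 called became 2 with no count filter, and 0 of all genes called became 17 with DESeq2, 85 with no count filter, 1 with only the groups compared and 0 to 113 with 1 library left out. The sign turned for H2-DMb1 at -0.20 (limma-voom), -0.01 (a filter of 50 counts in 3 libraries), -0.48 (a replicate block), -0.18 (females only) and -0.21 (both high males left out), H2-Eb1 at 0.28 (males only), H2-DMa at 0.62 (males only) and 0.75 (KO control females 1 and 3 left out) and Ciita at 0.03 (males only) and 0.05 (both high males left out). With 1 library left out in turn, values that crossed 0 ran as H2-Eb1 -1.81 to 0.39, H2-DMa -0.83 to 1.17, H2-DMb1 -1.33 to 0.42 and Ciita -0.76 to 0.23. For the interaction, 0 of the 7 called became 2 with no count filter, and 0 of all genes called became 12 with no count filter and 0 to 2 with 1 library left out. The sign turned for H2-DMb1 at 0.92 (males only) and 0.05 (KO control females 1 and 3 left out) and Ciita at 0.02 (both high males left out). With 1 library left out in turn, values that crossed 0 ran as H2-DMb1 -1.65 to 0.10 and Ciita -0.80 to 0.19. For male minus female, 860 of all genes called became 1458 with DESeq2 and 605 to 1562 with 1 library left out. The sign turned for H2-Eb1 at -0.02 (DESeq2 size factors in edgeR), -0.04 (DESeq2), -0.13 (limma-voom), -0.04 (a filter of 50 counts in 3 libraries), -0.47 (a replicate block) and -1.03 (both high males left out), H2-Ab1 at -0.20 (limma-voom), -0.17 (a replicate block) and -0.54 (both high males left out), Cd74 at -0.11 (both high males left out) and H2-Aa at -0.43 (both high males left out). With 1 library left out in turn, values that crossed 0 ran as H2-Ab1 -0.30 to 0.35, H2-Eb1 -0.52 to 0.52 and H2-DMa -0.80 to 1.00. For the sex difference of KO minus WT under AngII, the sign turned for Ciita at -0.01 (both high males left out). For the sex difference of KO minus WT in control mice, 9 of all genes called became 1 with DESeq2 size factors in edgeR, 110 with DESeq2, 5 with limma-voom, 198 with no count filter, 1 with a filter of 50 counts in 3 libraries, 1 with protein-coding counts, 0 with only the groups compared, 4 with both high males left out and 0 to 430 with 1 library left out. Scaled to protein-coding counts, 14 of 28 group means moved by more than 1 SD, and 14 did not.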
